A study of Mus musculus with 11 samples.

Results

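The ATP-binding cassette (ABC) family was examined in cultured mouse fetal lung mesenchymal cells that carried, or lacked, the transcription factor Sp3. Its members were taken as every gene symbol made of Abc, a subfamily letter from a to g, and a number, with or without a final a or b. This gave 50 of the 24062 gene symbols counted. By subfamily there were 16 members in A, 10 in B, 10 in C, 4 in D, 1 in E, 3 in F and 6 in G.

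The study prepared RNA from primary cells of embryonic day 15 lungs, isolated by their rapid adhesion to culture plastic and passaged before lysis. The 11 libraries were labelled by genotype as 4 WT, 4 Sp3+/- and 3 Sp3-/-, the last being homozygous for the Sp3 mutation and the second carrying 1 mutant copy. The mutation is constitutive, from a line of Sp3 heterozygous mice, so every cell type of the embryo carried the same genotype. The labels give no strain and do not say whether each library came from a separate embryo, so the p-values measure only the spread between these libraries. Titles of all 11 libraries, Sp3-/- included, hold the word CTRL, and no treatment is named. Each title also starts with 2 numbers, which name the libraries here, and some titles end in a further number, the suffix 2 or 3. The suffix was absent from all Sp3-/- libraries (685-1, 697-2 and 697-5), from WT 468-4 and from Sp3+/- 697-4, and present in the other WT (685-2, 697-1 and 697-3) and Sp3+/- (468-3, 685-5 and 685-7) libraries. The deposited table of 697-4 nevertheless carries a 2 in its name, so its suffix is in doubt. By the titles, suffix and genotype can be separated only through WT 468-4 and Sp3+/- 697-4, and if 697-4 had the suffix 2, only through WT 468-4. What the suffix marks is not given in the sources used here.

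ABC proteins bind and hydrolyse ATP through a conserved nucleotide-binding domain. Most are membrane pumps that move lipids, sterols, peptides, metal complexes, drugs or conjugated metabolites across a membrane, while members of subfamilies E and F have no membrane-spanning part and act on ribosomes. In the lung, ABC pumps are best known for loading surfactant lipid into lamellar bodies of alveolar type II cells (ABCA3) and for clearing sterol from macrophages (ABCA1 and ABCG1). Sp3 is a zinc finger factor that binds GC boxes, short GC-rich elements found in many promoters, and can raise or lower transcription.

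Reads assigned to genes ranged from 14113788 to 35351093 in WT, from 13842791 to 59297495 in Sp3+/- and from 9849111 to 45630738 in Sp3-/- libraries. The targeted gene Sp3 lay between 3.86 and 4.24 log2 CPM (CPM being the count scaled to a common library size) in Sp3-/-, between 5.70 and 6.16 in Sp3+/- and between 5.93 and 6.75 in WT libraries. Mesenchymal markers (10 genes) were abundant, with a summed level of 13100 to 22000 CPM in WT, 14900 to 22300 CPM in Sp3+/- and 7070 to 19000 CPM in Sp3-/- libraries, and 3 of the 9 tested (Vim, Pdgfrb and Foxf1) were called lower in Sp3-/- than in WT cells. Macrophage transcripts (7 genes, among them Csf1r, Cd68 and Lyz2) were also present. Lyz2 weighed most in their sum, with a mean of 9.47 log2 CPM in WT libraries against 5.905 for Cd68, the next highest. The summed level did not follow genotype alone. It was 2800 CPM in WT 468-4 but 533 to 797 CPM in the other WT libraries. It was 2700 CPM in Sp3+/- 697-4 but 321 to 591 CPM in the other Sp3+/- libraries, and 2700, 10200 and 9280 CPM in Sp3-/- 685-1, 697-2 and 697-5. Of these 7 markers, 3 were called higher in Sp3-/- than in WT cells. In the pericyte and smooth muscle list, 4 of 6 genes were called lower, with sums of 790 to 2060 CPM in Sp3-/- against 5760 to 12700 CPM in WT libraries. Epithelial markers summed to 46.4 to 151 CPM in Sp3-/- against 14.5 to 33.9 CPM in WT libraries (3 of 6 tested were called higher), and mesothelial markers to 1170 to 4170 against 526 to 1120 CPM (2 of 5 higher). None of the 6 endothelial markers tested was called, and of the erythroid list the globin genes Hba-a1 and Hbb-bt had no count in any library, while its 1 tested gene, Alas2, was called higher and its sum was 8.81 to 13 CPM in Sp3-/- against 1.99 to 6.54 CPM in WT libraries. In Sp3+/- libraries, pericyte and smooth muscle genes summed to 6680 to 8920 CPM and epithelial markers to 21.2 to 31.5 CPM. Their mesothelial (1040 to 1880 CPM) and erythroid (2.5 to 16.1 CPM) sums overlapped those of Sp3-/- libraries. The part of these other cell types in the results on ABC genes was not tested. In such bulk RNA, fewer cells of a type and less RNA per cell cannot be told apart.

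Of the 50 members, 39 passed the filter of more than 1 CPM in at least 1 of the 7 libraries compared and were tested in Sp3-/- against WT cells. A gene was called when its p from the quasi-likelihood test of edgeR, adjusted over all genes tested by the Benjamini-Hochberg method, was below 0.05. In Sp3-/- cells, 9 members were higher (among them Abca2, Abca3, Abca4, Abca9, Abcc3, Abcc5, Abcd2 and Abcg1) and 3 were lower (Abca5, Abcb10 and Abcg2). The 12 called members were 30.8% of those tested, where 18.5% of all 14025 genes were called. Higher members were 23.1% against 8.76% of all genes, and lower members 7.69% against 9.77%. The median log2 fold change was 0.24 over the members and -0.003 over all genes, and the median size of the change, whatever its sign, was 0.70 against 0.32. Called members came from subfamily A (4 higher and 1 lower of 12 tested), B (1 and 1 of 8), C (2 and 0 of 7), D (1 and 0 of 4) and G (1 and 1 of 4). The single E member and the 3 F members were not called. Without Sp3-/- 697-2, 2 members and 282 of all genes were called, against 12 and 2599 with it. Leaving out Sp3-/- 685-1 gave 12 members and 2232 of all genes, and leaving out Sp3-/- 697-5 gave 10 and 1408. Each of these reduced fits held 2 Sp3-/- libraries, and why their counts differed was not tested. In 17 of the 39 members (43.6%), all Sp3-/- libraries lay on 1 side of all WT libraries, against 31.3% of all genes tested.

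**Figure D1:**
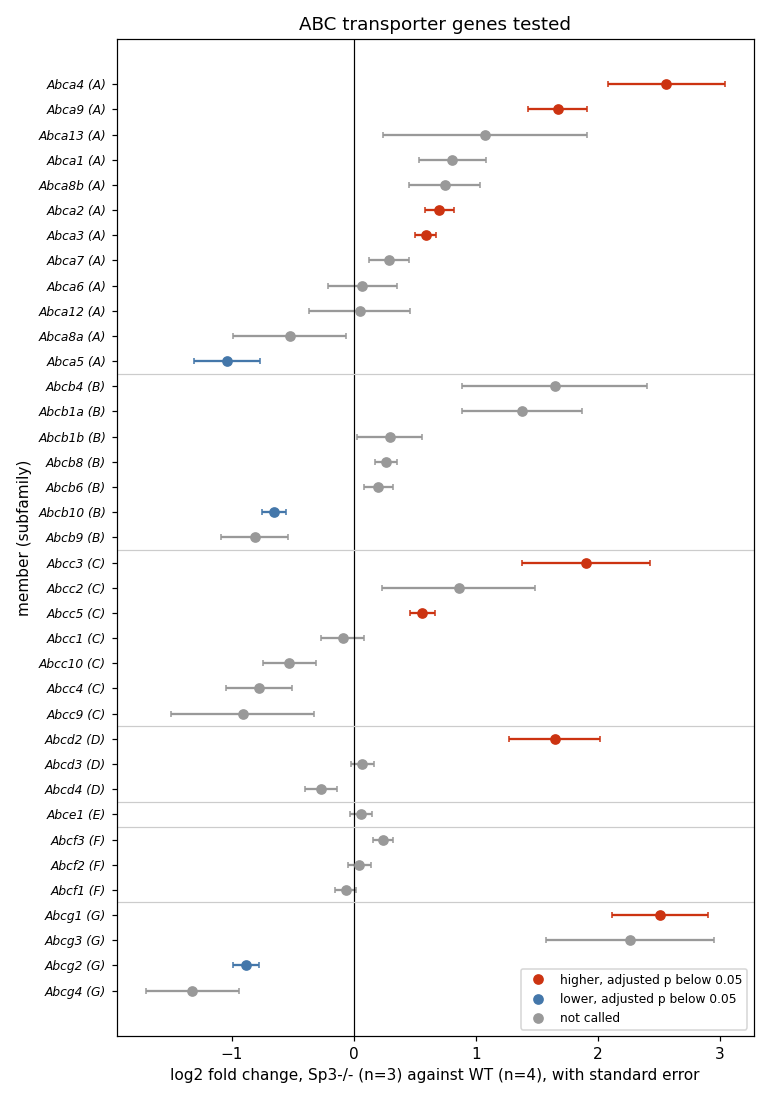
Log2 fold change of 37 of the 39 tested ABC genes in Sp3-/- (3 libraries) against WT (4 libraries) cells, grouped by subfamily A to G from top to bottom. Points are edgeR estimates with their standard errors, red for genes called higher (8 are drawn), blue for the 3 called lower and grey for the others. The estimates ran from -1.33 (Abcg4, not called) to 2.56 (Abca4), and those of subfamilies E and F sat close to 0.

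The other 11 members were at the edge of detection. Abca14, Abca15, Abca16 and Abcb5 had at most 1 read in any library. Abca17 (1 to 11 reads), Abcc6 (0 to 7), Abcc8 (0 to 6), Abcg5 (1 to 7), Abcg8 (0 to 8), Abcb11 (3 to 27) and Abcc12 (4 to 30) also failed the filter. These include the bile salt export pump Abcb11, the sterol pair Abcg5 and Abcg8, and the pancreatic sulfonylurea receptor Abcc8. They were not tested against WT. Abcb11 passed the filter over all 11 libraries and was not called in Sp3-/- against Sp3+/- cells (log2 fold change -1.08, SE 0.68).

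Expressed per kilobase of transcript, the most abundant members were those that act on ribosomes. In WT cells, Abce1, which splits ribosomes after termination, stood at 42.8 ± 3.56 CPM per kilobase (SD, n = 4). Abcf1, a factor of translation initiation, stood at 41.4 ± 1.59, and its distance from Abce1 was within the spread of Abce1. Abcf2 followed at 30.9 ± 2.58. Below it were Abcd3, the peroxisomal importer also known as PMP70, at 25.4 ± 0.885, and Abcc1, an exporter of glutathione conjugates, at 24.2 ± 2.45, which differed by less than the spread of Abcc1. Abcf3 reached 21.8 ± 1.12, Abcc5 19.4 ± 1.84 and the sterol exporter Abca1 17.4 ± 6.47, and Abca1 varied most among these. At the other end of the tested members, Abcc2, the canalicular organic anion pump of hepatocytes, stood at 0.0302 ± 0.0109 CPM per kilobase.

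In Sp3-/- cells the leading order was much the same, with Abce1 at 44.6 ± 2.58 (SD, n = 3), Abcf1 at 39.5 ± 2.84 and Abcf2 at 31.9 ± 1.3 CPM per kilobase. Abca1 (30.5 ± 3.98) and Abcc5 (28.7 ± 2.19) came next, above Abcd3 at 26.7 ± 2.41, although Abcc5 and Abcd3 differed by less than the spread of Abcd3. Abcg1 moved up the order, from 2.28 ± 0.823 in WT and 2.03 ± 1.35 in Sp3+/- to 13.0 ± 6.08 CPM per kilobase in Sp3-/- libraries.

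**Figure D2:**
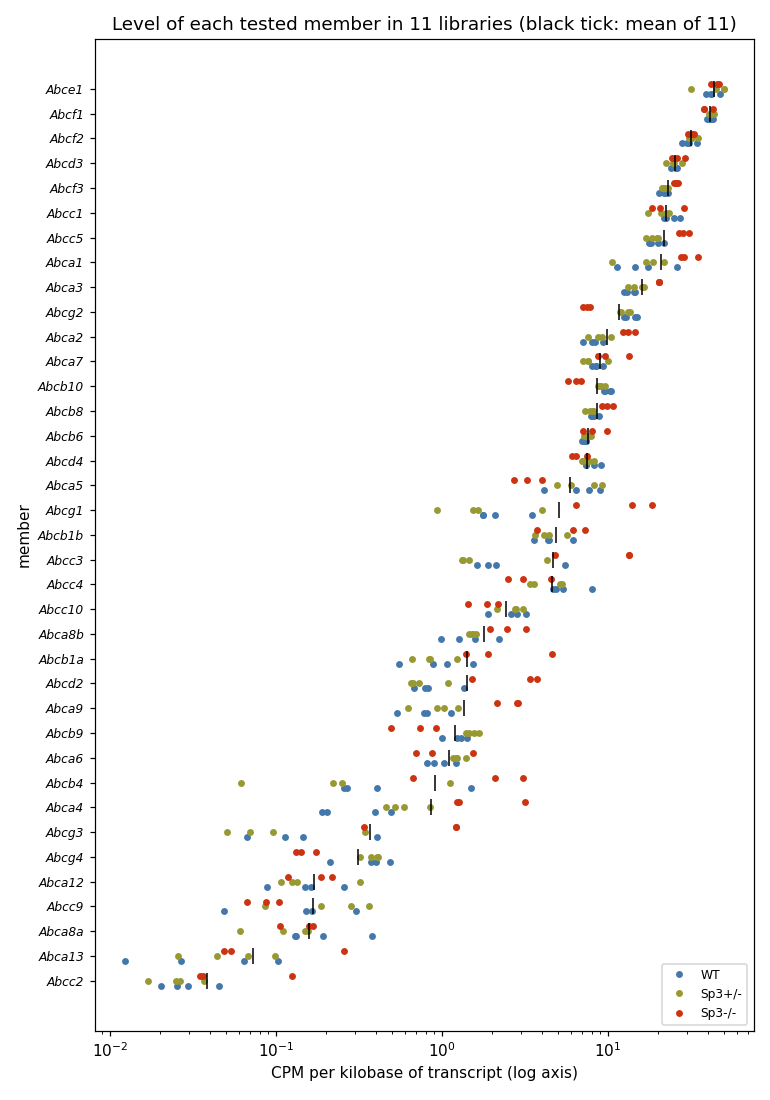
Level of 37 tested members in every library, in CPM per kilobase of transcript on a log axis, ordered by the mean over 11 libraries (black tick). Blue points are WT, olive Sp3+/- and red Sp3-/- libraries. Abce1, Abcf1 and Abcf2 lead in every genotype, while for Abcg1, Abca9 and Abcg2 the red points stand apart from the blue ones.

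Since Sp3 binds GC boxes, the promoters were searched for the core of that element, GGGCGG, on either strand, in RefSeq promoters of GRCm38.p6 running from 250 bases before to 50 after a start site. Of the 50 members, 38 had an entry, with 45 promoters in all. A GC box was present in 21 of the 45 (46.7%), against 11714 of 32851 promoters of all genes (35.7%), a description of letters and not of binding. Promoters of all 3 members called lower and of 3 called higher are printed here because they range from 5 boxes to none. They are written 5′ to 3′ along the gene's strand, with each GC box (GGGCGG, or CCGCCC where it lies on the other strand) in capitals. Abca5 is at chr11:110337667-110337966 on the minus strand and holds 5 boxes. Abcg2, whose other entries hold 0 and 2, has 4 boxes at chr6:58640296-58640595 on the plus strand. Abcb10 is at chr8:123983073-123983372 on the minus strand and holds none. Abca3 is at chr17:24351773-24352072 on the plus strand and holds 1. Abca4, at chr3:122044210-122044509 on the plus strand, and Abca9, at chr11:110168104-110168403 on the minus strand, hold none.
Abca5: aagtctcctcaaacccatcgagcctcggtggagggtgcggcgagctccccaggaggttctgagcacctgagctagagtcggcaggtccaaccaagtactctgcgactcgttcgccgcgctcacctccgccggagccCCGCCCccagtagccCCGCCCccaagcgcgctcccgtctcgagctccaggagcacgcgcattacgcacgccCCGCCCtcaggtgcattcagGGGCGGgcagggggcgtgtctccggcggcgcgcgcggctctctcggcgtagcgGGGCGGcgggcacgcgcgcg
Abcg2: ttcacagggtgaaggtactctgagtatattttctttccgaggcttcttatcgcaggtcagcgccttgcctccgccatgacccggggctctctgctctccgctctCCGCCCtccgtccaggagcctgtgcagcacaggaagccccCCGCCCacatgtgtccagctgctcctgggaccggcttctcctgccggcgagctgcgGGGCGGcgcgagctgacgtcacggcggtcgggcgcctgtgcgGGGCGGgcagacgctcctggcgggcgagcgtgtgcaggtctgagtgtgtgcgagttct
Abcb10: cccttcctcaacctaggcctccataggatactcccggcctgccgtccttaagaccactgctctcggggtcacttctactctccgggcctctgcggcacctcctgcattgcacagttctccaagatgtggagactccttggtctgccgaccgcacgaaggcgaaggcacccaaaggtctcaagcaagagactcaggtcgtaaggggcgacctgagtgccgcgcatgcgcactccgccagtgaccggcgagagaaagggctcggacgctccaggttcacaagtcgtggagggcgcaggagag
Abca3: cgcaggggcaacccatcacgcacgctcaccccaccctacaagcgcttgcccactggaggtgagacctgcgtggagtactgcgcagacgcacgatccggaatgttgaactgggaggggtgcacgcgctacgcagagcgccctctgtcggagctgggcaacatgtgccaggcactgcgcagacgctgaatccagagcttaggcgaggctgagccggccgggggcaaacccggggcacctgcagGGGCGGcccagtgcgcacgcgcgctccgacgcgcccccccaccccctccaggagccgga
Abca4: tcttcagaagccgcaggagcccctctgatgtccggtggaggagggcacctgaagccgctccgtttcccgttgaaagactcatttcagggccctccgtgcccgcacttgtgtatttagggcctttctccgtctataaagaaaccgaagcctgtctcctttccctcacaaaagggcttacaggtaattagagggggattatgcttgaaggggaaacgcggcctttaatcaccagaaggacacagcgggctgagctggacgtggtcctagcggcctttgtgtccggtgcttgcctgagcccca
Abca9: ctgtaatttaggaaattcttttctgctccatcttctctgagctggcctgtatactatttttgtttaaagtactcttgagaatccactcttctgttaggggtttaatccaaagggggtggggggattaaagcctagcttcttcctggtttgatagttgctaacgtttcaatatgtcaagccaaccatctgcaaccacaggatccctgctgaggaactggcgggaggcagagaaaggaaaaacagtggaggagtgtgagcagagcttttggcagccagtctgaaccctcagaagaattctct
Of the other members called higher, Abca2 held 1 box and Abcc5 none, and Abcg1, Abcc3 and Abcd2 had no entry.

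Values by library are given below as log2 CPM, in the order 468-4, 685-2, 697-1 and 697-3 for WT, 468-3, 685-5, 685-7 and 697-4 for Sp3+/-, and 685-1, 697-2 and 697-5 for Sp3-/- cells. Log2 fold changes are those of edgeR for Sp3-/- against WT, with their standard errors (SE).

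Subfamily A holds large lipid transporters, and 4 of its 12 tested members were higher in Sp3-/- cells. Abca4, which moves retinoid-lipid adducts across photoreceptor disc membranes, was at 1.87, 1.55, 0.53 and 0.63 in WT, 2.13, 2.64, 1.94 and 1.78 in Sp3+/- and 4.53, 3.22 and 3.18 in Sp3-/- libraries. All Sp3-/- values exceeded all others, and 685-1 was the highest. The log2 fold change was 2.56 (SE 0.48, edgeR adjusted p = 0.017), or 5.91-fold, at a low level of 34 to 824 reads. Abca9, a less studied relative of the lipid pumps, was at 3.29, 2.76, 2.82 and 2.23 in WT, 2.45, 3.43, 3.16 and 3.03 in Sp3+/- and 4.62, 4.60 and 4.21 in Sp3-/- libraries. The Sp3-/- values did not overlap those of the other genotypes, and the change was 1.67 (SE 0.24, edgeR adjusted p = 0.0104), or 3.19-fold. Abca2, a lysosomal lipid transporter, was at 6.25, 6.10, 6.04 and 5.85 in WT, 6.41, 6.14, 5.95 and 6.23 in Sp3+/- and 6.74, 6.66 and 6.90 in Sp3-/- libraries. It stood higher in all Sp3-/- libraries than elsewhere, by 0.70 over WT (SE 0.12, edgeR adjusted p = 0.0138).

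Abca3, the surfactant lipid pump, was at 6.56, 6.54, 6.35 and 6.41 in WT, 6.71, 6.55, 6.44 and 6.75 in Sp3+/- and 7.06, 7.06 and 7.05 in Sp3-/- libraries. The Sp3-/- values were almost identical and above all others, with a change of 0.59 (SE 0.08, edgeR adjusted p = 0.00997), or 1.5-fold. Of the 8 epithelial markers, Epcam (3.12), Cdh1 (4.81) and Krt18 (1.73) were called higher in Sp3-/- cells. Krt8 (2.59), Nkx2-1 (-1.855) and Sftpc (-4.72) were not called. The summed level of the list was 14.5 to 33.9 CPM in WT libraries. It was 151, 79.5 and 46.4 CPM in Sp3-/- 685-1, 697-2 and 697-5, among which Abca3 hardly varied. The surfactant genes of the list were near 0, with at most 4 reads for Sftpb and Sftpa1 in any library and, for Sftpc, 1 read in each Sp3-/- library and 0 to 66 in WT libraries. The part of epithelial cells in the Abca3 result was not tested. Abca3 starts beside Abca17 on chromosome 17, and 16.1% of its 50-base windows also occur in another annotated transcript, most of them in D330041H03Rik. Part of its reads may therefore not have been counted for it.

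Abca5, a lysosomal member, moved the other way. It was at 6.21, 5.10, 5.73 and 5.99 in WT, 5.35, 5.62, 6.09 and 6.26 in Sp3+/- and 4.49, 4.75 and 5.05 in Sp3-/- libraries, with WT 685-2 only just above Sp3-/- 697-5. The change was -1.04 (SE 0.27, edgeR adjusted p = 0.0388). Abca5 and Abca9 are neighbours. The cluster on chromosome 11 of GRCm38.p6 runs from Abca8b (chr11:109932206-109996274) through Abca8a (chr11:110025634-110097580), Abca9 (chr11:110100749-110168274) and Abca6 (chr11:110174638-110251776) to Abca5 (chr11:110269369-110337723). Within it, Abca9 rose and Abca5 fell, while Abca8b (0.75, SE 0.29), Abca8a (-0.53, SE 0.46) and Abca6 (0.07, SE 0.28) were not called.

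Abca1, which exports cholesterol and phospholipid to apolipoprotein A-I, was at 6.86, 7.49, 8.08 and 7.22 in WT, 7.46, 7.81, 7.59 and 6.77 in Sp3+/- and 8.22, 8.49 and 8.15 in Sp3-/- libraries. The Sp3-/- values lay above all WT values, with WT 697-1 just below the lowest of them, and the change of 0.81 (SE 0.27) was not called (edgeR adjusted p = 0.0762). With the title suffix as a covariate over all 11 libraries it was 1.47 (SE 0.25) and was called (edgeR adjusted p = 0.0144), but with 697-4 given the suffix 2 it was 1.43 and was not called (edgeR adjusted p = 0.106). Leaving out WT 697-1 gave 1.08 (edgeR adjusted p = 0.0398). Abca8b, at 4.05, 3.57, 3.25 and 2.90 in WT and 4.58, 3.87 and 4.21 in Sp3-/- libraries, was called only when WT 468-4 was left out among the fits that omitted 1 library (0.99, edgeR adjusted p = 0.0258). Abca8a was low, at 1.16, -0.29, 0.21 and -0.31 in WT and -0.06, 0.02 and -0.59 in Sp3-/- libraries. Across subfamily A, the calls of Abca2 (edgeR adjusted p = 0.0502), Abca4 (0.0528), Abca5 (0.128) and Abca9 (0.0508) were lost without Sp3-/- 697-2. Abca4 also lost its call without WT 697-1 (edgeR adjusted p = 0.0509) or 697-3 (0.0519), and Abca5 without Sp3-/- 685-1 (0.0882) or 697-5 (0.0558) and WT 697-1 (0.0854) or 697-3 (0.0972).

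**Figure D3:**
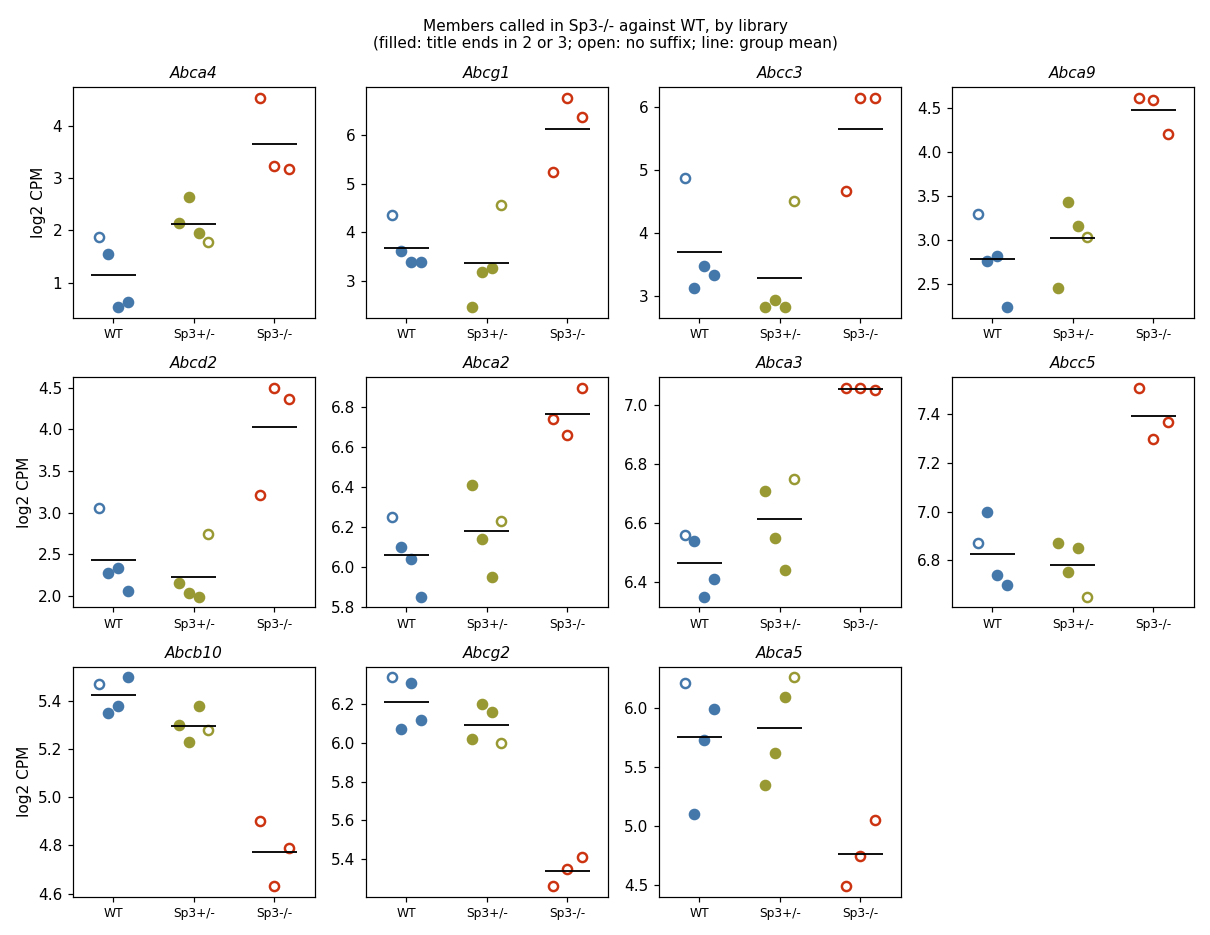
Log2 CPM of 11 of the 12 called members in each library, by genotype, ordered by fold change from Abca4 to Abca5, with a line at each group mean. Filled points are libraries whose title ends in a suffix and open points those without one. Abca3 and Abcg2 show tight groups, whereas for Abcg1, Abcc3 and Abcd2 the open WT and Sp3+/- points (468-4 and 697-4) stand above the filled points of their genotype.

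Subfamily B includes the drug pumps and several mitochondrial members. Abcb10, an inner membrane protein needed for heme production, was at 5.47, 5.35, 5.38 and 5.50 in WT, 5.30, 5.23, 5.38 and 5.28 in Sp3+/- and 4.90, 4.63 and 4.79 in Sp3-/- libraries. It was lower in all 3 Sp3-/- libraries than in any other library, with a change of -0.65 (SE 0.10, edgeR adjusted p = 0.0107). For Abcb10, 16.2% of the 50-base windows occur in another transcript, mostly Gm45890. The mitochondrial members Abcb8 (0.26, SE 0.09) and Abcb6 (0.20, SE 0.12) were not called, and 87.6% of Abcb6 windows also lie in other transcripts, nearly all in the overlapping model Gm29253. Without Sp3-/- 697-2, Abcb10 lost its call (edgeR adjusted p = 0.0508).

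Abcb1a and Abcb1b encode the mouse P-glycoproteins, efflux pumps for lipophilic drugs. Abcb1a was at 2.46, 2.97, 2.19 and 1.51 in WT, 2.65, 2.11, 1.76 and 2.13 in Sp3+/- and 2.82, 3.27 and 4.55 in Sp3-/- libraries. The highest value was in Sp3-/- 697-5, and the lowest Sp3-/- value lay within the WT range. The change of 1.38 (SE 0.49) was not called (edgeR adjusted p = 0.087), and it was 0.69 without Sp3-/- 697-5. Abcb1b was at 4.83, 4.33, 4.35 and 4.04 in WT and 4.11, 5.06 and 4.82 in Sp3-/- libraries, overlapping between genotypes, with a change of 0.30 (SE 0.27). This estimate turned to -0.11 with the suffix as a covariate. The transcripts share sequence, 15.4% of Abcb1a windows occurring in Abcb1b and 17% of Abcb1b windows in Abcb1a. Reads from the shared windows could not be told apart. Their neighbour on chromosome 5, the phosphatidylcholine exporter Abcb4, was at 2.80, 0.37, 0.31 and 0.95 in WT and 1.65, 3.28 and 3.83 in Sp3-/- libraries and was not called (1.65, SE 0.76).

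Subfamily C contains the exporters of organic anions and conjugates, and the sulfonylurea receptors. Abcc5, which carries cyclic nucleotides and other anions, was at 6.87, 7.00, 6.74 and 6.70 in WT, 6.87, 6.75, 6.85 and 6.65 in Sp3+/- and 7.51, 7.30 and 7.37 in Sp3-/- libraries. The Sp3-/- values lay above all the others, with a change of 0.56 (SE 0.10, edgeR adjusted p = 0.0163), or 1.47-fold. Abcc3, an exporter of bile salts and glucuronides, was at 4.87, 3.12, 3.48 and 3.33 in WT, 2.82, 2.94, 2.83 and 4.51 in Sp3+/- and 4.66, 6.14 and 6.14 in Sp3-/- libraries. The change was 1.90 (SE 0.53, edgeR adjusted p = 0.0454), but WT 468-4 was above Sp3-/- 685-1. Abcc5 lost its call without Sp3-/- 697-2 (edgeR adjusted p = 0.0558) or WT 697-1 (0.0518), and Abcc3 without any 1 of 685-2, 697-1, 697-3, 697-2 or 697-5 (0.108 to 0.141).

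Abcc1, the most abundant member of the subfamily in WT cells, was at 7.55, 7.28, 7.23 and 7.44 in WT, 7.27, 6.92, 7.17 and 7.34 in Sp3+/- and 6.99, 7.16 and 7.64 in Sp3-/- libraries. The genotypes overlapped, the change was -0.09 (SE 0.18), and it became 0.04 without Sp3-/- 685-1. Abcc4, an exporter of cyclic nucleotides and prostaglandins, was at 5.60, 4.88, 4.82 and 5.01 in WT and 4.21, 3.92 and 4.77 in Sp3-/- libraries. The groups did not overlap, but only narrowly, and the change of -0.78 (SE 0.27) was not called (edgeR adjusted p = 0.0788), whereas with the suffix as a covariate and 697-4 taken as without one it was -1.25 (edgeR adjusted p = 0.018). Abcc9, the regulatory subunit of the potassium channel of vascular smooth muscle and pericytes, was low and variable, at -1.22, 0.37, 0.26 and 1.21 in WT, 1.13, 0.55, 1.47 and -0.49 in Sp3+/- and -0.23, -0.47 and -0.82 in Sp3-/- libraries. Its change of -0.91 (SE 0.59) was not called, and it turned to 0.68 with the suffix as a covariate. Of the pore subunits that such receptors pair with, Kcnj8 was not called (0.74, SE 0.45, 8 to 50 reads per library) and Kcnj11 had at most 9 reads in any library.

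Subfamily D imports long acyl chains into peroxisomes, apart from the lysosomal cobalamin transporter Abcd4. Abcd2 was at 3.06, 2.28, 2.34 and 2.06 in WT, 2.16, 2.03, 1.99 and 2.74 in Sp3+/- and 3.21, 4.50 and 4.36 in Sp3-/- libraries. Sp3-/- 685-1 was only slightly above WT 468-4, and the change was 1.65 (SE 0.37, edgeR adjusted p = 0.0272), or 3.13-fold. The call was lost without any 1 of 685-2, 697-1, 697-3, 697-2 or 697-5 (edgeR adjusted p of 0.0679 to 0.103). Abcd3, at 6.63, 6.52, 6.62 and 6.62 in WT and 6.55, 6.65 and 6.80 in Sp3-/- libraries, differed by 0.07 (SE 0.10) and was not called, turning to -0.02 without Sp3-/- 697-5. Abcd4 was not called either (-0.27, SE 0.13).

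None of the ribosome-acting members was called in Sp3-/- against WT cells. Abce1 was at 7.5, 7.22, 7.32 and 7.32 in WT and 7.43, 7.46 and 7.30 in Sp3-/- libraries, differing by 0.06 (SE 0.09), or by -0.06 with the suffix as a covariate. Abcf1 was at 7.14, 7.04, 7.08 and 7.17 in WT and 6.98, 7.16 and 6.98 in Sp3-/- libraries (-0.07, SE 0.08), and Abcf2 at 6.72, 6.76, 6.62 and 6.91 and 6.73, 6.85 and 6.82 (0.05, SE 0.09; -0.009 with the suffix as a covariate). Abcf3 was at 6.08, 6.10, 5.97 and 6.15 in WT and 6.32, 6.28 and 6.35 in Sp3-/- libraries. All its Sp3-/- values lay above the WT ones, yet the change of 0.24 (SE 0.08) was not called (edgeR adjusted p = 0.0715).

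Subfamily G gave the smallest adjusted p of the family and one of its widest changes. Abcg2, an exporter of urate, porphyrins and many drugs, was at 6.34, 6.07, 6.31 and 6.12 in WT, 6.02, 6.20, 6.16 and 6.0 in Sp3+/- and 5.26, 5.35 and 5.41 in Sp3-/- libraries. It was lower in all Sp3-/- libraries than in any other, with a change of -0.88 (SE 0.11, edgeR adjusted p = 0.00764), and its level per kilobase went from 13.8 ± 1.28 (SD, n = 4) in WT to 7.49 ± 0.388 (SD, n = 3) in Sp3-/- cells. Abcg2 and Abca3 were the members called in all 7 fits that left out 1 library. Abcg1, which passes sterol to high density lipoprotein, was at 4.36, 3.61, 3.39 and 3.38 in WT, 2.46, 3.19, 3.27 and 4.55 in Sp3+/- and 5.24, 6.76 and 6.36 in Sp3-/- libraries. Each Sp3-/- value was above every other, and the change was 2.51 (SE 0.40, edgeR adjusted p = 0.0127), or 5.69-fold. Abcg1 lost its call without Sp3-/- 697-2 (edgeR adjusted p = 0.0513). The rodent member Abcg3 was at 0.38, -1.30, -1.90 and -0.97 in WT and 0.14, 1.91 and 1.91 in Sp3-/- libraries and was not called (2.26, SE 0.69). Abcg4, a relative of Abcg1 found mainly in brain, was at -0.14, 0.65, 1.00 and 0.74 in WT and -0.74, -0.67 and -0.38 in Sp3-/- libraries. It was lower in every Sp3-/- library, with a change of -1.33 (SE 0.38) whose adjusted p was at the threshold, and it was not called.

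Some members, noted after their values were seen, were higher where the macrophage sum was higher. By title, all libraries without a suffix had sums of 2700 to 10200 CPM and those with one 321 to 797 CPM. Suffix and macrophage level thus changed together, and their parts in these values were not tested. Abcg1, Abcc3, Abcd2, Abcb4 and Abcg3 were higher in WT 468-4 and in Sp3+/- 697-4, whose macrophage sums were 2800 and 2700 CPM, than in the other libraries of those genotypes. Sp3-/- 685-1, with a macrophage sum of 2700 CPM, had the lowest value of the 3 Sp3-/- libraries for each of them. Among these 3 libraries of nearly equal macrophage sum, Abcg1 was at 4.36 in WT 468-4, 4.55 in Sp3+/- 697-4 and 5.24 in Sp3-/- 685-1, so the Sp3-/- library was the highest. Abcc3 was at 4.87, 4.51 and 4.66 and Abcd2 at 3.06, 2.74 and 3.21, with little distance between genotypes. Abcb4 was at 2.80, 2.38 and 1.65 and Abcg3 at 0.38, 0.15 and 0.14, lowest in the Sp3-/- library. Neither was called in Sp3-/- against WT cells. Abca9 was at 3.29, 3.03 and 4.62 and Abca4 at 1.87, 1.78 and 4.53, a wide distance in both. The 3 libraries were alike in macrophage sum but not in other markers. Mesothelial genes summed to 1120, 1160 and 4170 CPM and epithelial genes to 27.4, 22.7 and 151 CPM in the same order. Pericyte and smooth muscle genes summed to 6150, 8920 and 2060 CPM and mesenchymal genes to 13100, 14900 and 19000 CPM. The part of these cells was not tested. Abcg2 was at 6.34, 6.0 and 5.26. These are single libraries, and no test was made on them.

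**Figure D4:**
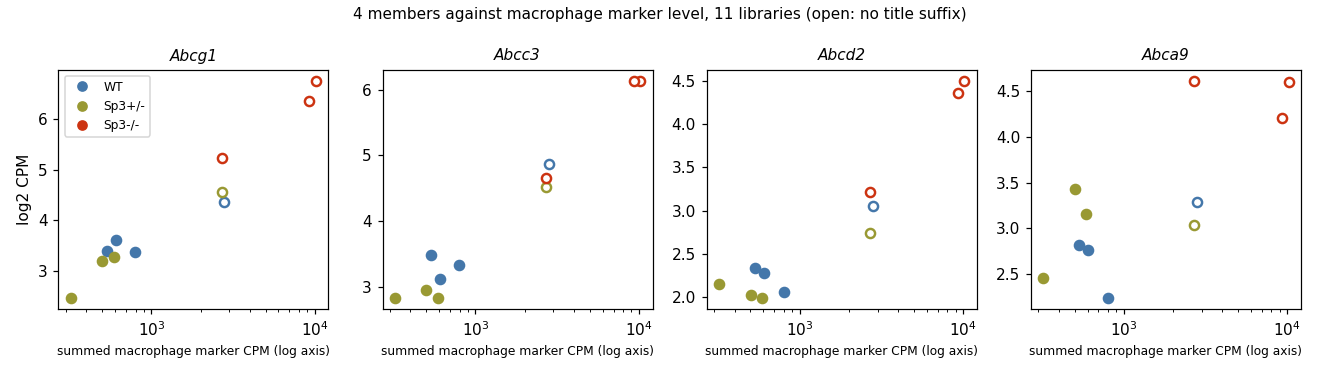
Log2 CPM of 4 members against the summed CPM of 7 macrophage markers (log axis) in the 11 libraries, blue for WT, olive for Sp3+/- and red for Sp3-/-, with open points for titles without a suffix. Abcg1, Abcc3 and Abcd2 climb along the marker sum, and the 3 libraries between 2700 and 2800 CPM lie close together for Abcc3. For Abca9 the Sp3-/- library at 2700 CPM is as high as those at 9280 and 10200 CPM.

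With the title suffix as a covariate in a fit of all 11 libraries, 12 of 40 members were called in Sp3-/- against WT cells (30%), where 9.41% of all 14130 genes were called. Of these, 8 were higher (3.6% of all genes) and 4 were lower (5.8% of all genes). Among the 12 members called without the covariate, 10 were called again in the same direction, among them Abca2, Abca3, Abca4, Abca9, Abcc5 and Abcg1 as higher and Abca5, Abcb10 and Abcg2 as lower. Abcc3 went from 1.90 to 0.88 (SE 0.41, edgeR adjusted p = 0.197) and Abcd2 from 1.65 to 1.09 (SE 0.37, edgeR adjusted p = 0.094), and neither was called. Abcg1 went from 2.51 to 1.72 (SE 0.41, edgeR adjusted p = 0.036). Abcg2 stayed at -0.90 (SE 0.12, edgeR adjusted p = 0.00652). Abca1 (higher) and Abcc4 (lower) were called with the covariate but not without it. These calls rest on taking 697-4 as without a suffix, as its title has it. Under that coding 468-3 is alone in its suffix and does not inform the contrast. The same coding divides the libraries by macrophage sum, so this fit does not separate suffix from macrophage level. With 697-4 given the suffix 2, an alternative chosen after seeing the data, only Abcg2 was called among the members (-1.01, SE 0.12, edgeR adjusted p = 0.0127), and 163 of all genes were. Abca3 was then at 0.49 (edgeR adjusted p = 0.0798), Abcb10 at -0.70 (0.0513), Abca9 at 1.2 (0.111), Abca4 at 1.94 (0.196) and Abcg1 at 1.89 (0.248). Over the 4 libraries without a suffix (WT 468-4 and the 3 Sp3-/-), 0 members and 0 of all genes were called by edgeR, 11 members had an unadjusted p below 0.05, and the change was -1.02 for Abcg2, 1.88 for Abcg1, 1.19 for Abca9 and 0.91 for Abcc3.

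**Figure D5:**
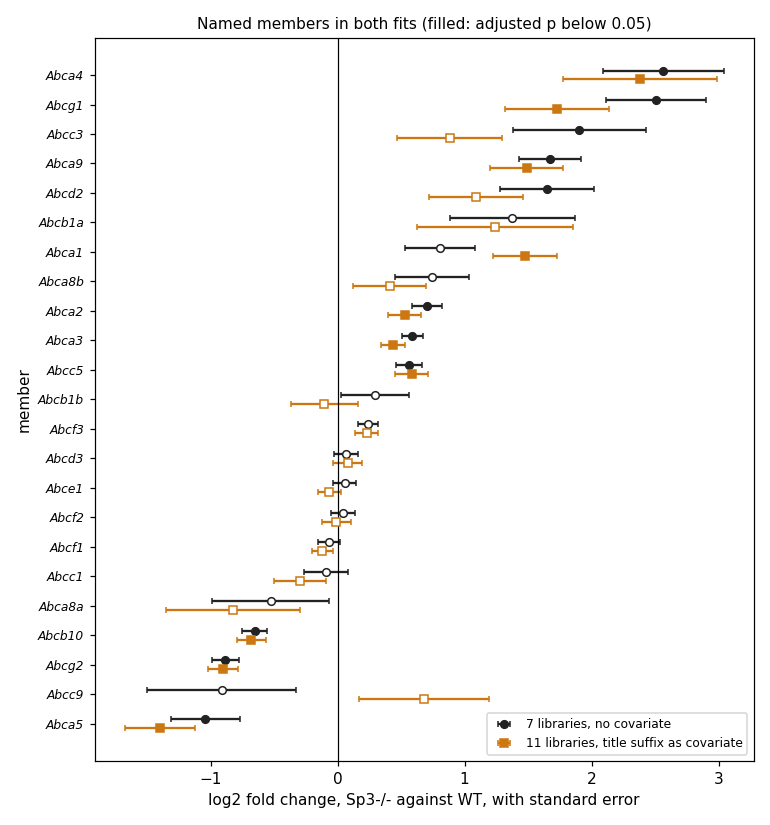
Log2 fold change with standard error in Sp3-/- against WT cells (697-4 taken as without a suffix) for 23 of the members given by library, from the 7 WT and Sp3-/- libraries (circles) and from all 11 libraries with the title suffix as a covariate (squares). Filled symbols mark an adjusted p below 0.05. Abcc3 (1.90 and 0.88) and Abcd2 (1.65 and 1.09) lose their fill, Abca1 (0.81 and 1.47) gains it, and Abcc9 crosses 0.

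Loss of 1 copy of Sp3 was examined in Sp3+/- against WT cells. None of the 40 members tested was called by edgeR, nor was any gene (0%). Sp3 itself was thus not called, its Sp3+/- values (5.70 to 6.16 log2 CPM) overlapping those of WT (5.93 to 6.75). The lack of calls therefore does not show that levels were unchanged. One member, Abca4, had an unadjusted edgeR p below 0.05 (log2 fold change 0.92, SE 0.41), among 246 of all genes. DESeq2 also called 0 members, with 1 (Abca4) at an unadjusted p below 0.05, and limma-voom called 0, with 1 (Abcc4). The median log2 fold change of the members was -0.007. For Abcg2 it was -0.13 (SE 0.08), for Abca3 0.14 (SE 0.09) and for Abcg1 -0.18 (SE 0.45).

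Sp3-/- cells were also compared with Sp3+/- cells, a comparison that shares its Sp3-/- libraries with the one against WT. Here 18 of 40 members were called (45%), where 25.5% of all genes were. Of these, 13 were higher (32.5% of the members, 13% of all genes) and 5 were lower (12.5% of the members, 12.5% of all genes). All 12 members called against WT were among them, each in the same direction. For these the change against Sp3+/- was 1.64 (SE 0.42) for Abca4, 1.43 (SE 0.26) for Abca9, 2.67 (SE 0.49) for Abcg1, 2.32 (SE 0.58) for Abcc3, 1.88 (SE 0.34) for Abcd2 and -0.76 (SE 0.09) for Abcg2. The 6 further members were Abcb1a (1.56, SE 0.45), Abcb8 (0.33, SE 0.08), Abcf3 (0.23, SE 0.07) and Abcg3 (2.78, SE 0.77) as higher, and the lysosomal peptide transporter Abcb9 (-1.10, SE 0.23) and Abcg4 (-1.38, SE 0.32) as lower. With the suffix as a covariate, 7 members and 763 of all genes were called in this comparison, or 0 and 0 with 697-4 given the suffix 2 (9 members at an unadjusted p below 0.05), against 18 and 3607 without it. Without Sp3+/- 685-7, 11 members and 1887 of all genes were called, and without Sp3-/- 697-2, 11 and 1490.

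The genes that work with ABC pumps were followed through lists of 104 symbols, of which 92 were tested and 19 (20.7%) called in Sp3-/- against WT cells, 14 higher and 5 lower, a share near the 18.5% of all genes. The count was 5 without Sp3-/- 697-2 and 29 without WT 468-4. It was 6 to 8 without any 1 of WT 685-2, 697-1 or 697-3 or Sp3-/- 697-5. With the suffix as a covariate and 697-4 given the suffix 2 it was 1. Calls over all genes moved as well, from 2599 to 282, 4179, 766 to 1408 and 163 in the same order. Of 18 genes of sterol and phospholipid efflux, 4 were higher and 1 was lower. Apoe, an acceptor of exported sterol, rose by 3.14 on the log2 scale (SE 0.87), Pltp, a phospholipid transfer protein, by 1.27 (SE 0.20), and Mylip, a ubiquitin ligase induced by sterols, by 1.26 (SE 0.26). Rxra, the partner of the liver X receptors, rose by 0.81 (SE 0.17). The liver X receptors themselves were not called, with 0.07 (SE 0.33) for Nr1h3 and 0.19 (SE 0.08) for Nr1h2. With the suffix as a covariate Apoe was at 1.78 (edgeR adjusted p = 0.0669) and Rxra at 0.67 (0.0546), and neither was called. Over all partner lists, 7 of the 19 called genes kept their call in that fit. They were Pltp, Mylip, Ppara, Slco2a1, Slco3a1, Nt5e and Tapbp.

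Counts in the lists below stand beside 8.76% of all genes called higher and 9.77% called lower, and no list was tested. Of 14 peroxisomal genes, 2 were higher and 2 were lower. The beta-oxidation enzyme Hsd17b4 (0.47, SE 0.11) was among the higher, and the enzyme Ehhadh (-0.82, SE 0.19) and the lipid-sensing receptor Ppara (-2.62, SE 0.39) were the lower. Of 21 mitochondrial iron-sulfur and heme genes, Slc25a28, a mitochondrial iron importer (0.40, SE 0.10), and Alad, an enzyme of heme synthesis (0.52, SE 0.13), were higher and none was lower. Among 15 genes of the drug response, the prostaglandin transporter Slco2a1 (2.09, SE 0.32) and the glutathione transferase Gsta4 (1.45, SE 0.34) were higher and the organic anion transporter Slco3a1 (-1.87, SE 0.21) was lower. Of 13 genes of ribosome recycling and stress translation, the termination factor gene Gspt1 (0.37, SE 0.09) was higher and none was lower. Of 5 mineralisation genes, the pyrophosphate-producing enzyme Enpp1 (1.25, SE 0.21) and the adenosine-producing enzyme Nt5e (1.73, SE 0.41) were higher.

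ABC proteins that carry other names were few. Tap1, a subunit of the peptide transporter that feeds MHC class I, changed by -0.40 (SE 0.10, edgeR adjusted p = 0.0329), while its partner Tap2 was not called (0.53, SE 0.17). Tapbp, which bridges that transporter to MHC class I, rose by 0.77 (SE 0.09, edgeR adjusted p = 0.00744). Cftr, the chloride channel of airway epithelium, had 4 to 47 reads per library and was not called (-0.60, SE 0.56).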

How the data were processed

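The authors extracted RNA with TRIzol, made TruSeq libraries, sequenced 50 bp single-end reads and, per the labels, used FastQC 0.10.1, STAR 2.4.5a, the mm10 build and HTSeq. The annotation version and strand setting are not given in the sources used here. The deposited values are raw counts per gene symbol, 1 table a library. The 5 closing tallies of unassigned reads in each table entered neither the library sizes nor any test. They held 38.4 to 40.9% of all reads listed.

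Sp3-/- against WT was fitted on 7 libraries with edgeR 4.0.16 (R 4.3.3; TMM scaling, robust quasi-likelihood test, genes above 1 CPM in at least 1 library, Benjamini-Hochberg adjustment over all genes). Sp3+/- against WT and Sp3-/- against Sp3+/- came from 1 fit of 11 libraries. Alternatives used DESeq2 1.42.0 and limma 3.58.1 (voom, with and without consensus correlation, the approach nearest to that of the study). Single-library values are log2 CPM with TMM scaling and a prior count of 2. Levels per kilobase used GENCODE vM39 canonical transcript lengths, and coordinates and promoters came from RefSeq tables of GRCm38.p6, the assembly of mm10. Shared sequence was measured as exact 50-base windows between vM39 transcripts. The scripts were tested on simulated data. Depth ran from 9849111 to 59297495 reads on genes, and precision was lowest for members with few reads.

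The members, the partner and marker lists and the tests were chosen with earlier results of these data known. Members described by library were all those called in Sp3-/- against WT, the 6 highest per kilobase, and Abca1, Abcg1, Abca3, Abcb1a, Abcb1b, Abcc1, Abcc9, Abcg2, Abca8a, Abca8b, Abca9 and Abce1. Other members appear by their change or count range, and of each partner list up to 3 called genes with the largest changes, with Kcnj8, Kcnj11, Cftr, Tap1 and Tap2. Further names, such as Abcb4, Abcg3, Abcg4, Abcc4, Rxra, Nr1h2 and Nr1h3, were added after their values were seen. Some members and partner genes that enter the counts are not reported here. All pairs of libraries within a group differed by more than sampling noise, so none was treated as a library deposited again, which does not show that they came from separate embryos.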

Additional observations from a re-analysis of the deposited data

Results flagged for a closer look

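Of 46 groups of 4 libraries examined (23 members in WT and Sp3+/- cells), 2 held a library whose gap to the nearest other was wide for the group's range, where chance gives about 1 in 20. Abcc3 was at 4.51 log2 CPM in Sp3+/- 697-4 against 2.82 to 2.94 in the other Sp3+/- libraries, and this library also had a macrophage marker sum of 2700 CPM against 321 to 591 CPM in the others, whose part in this value was not tested. Abcd3 was at 6.52 in WT 685-2 against 6.62 to 6.63, a small distance within a tight group.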

How the results depend on the processing

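The count of 12 called members in Sp3-/- against WT cells became 20 with DESeq2, 19 in the fit of all 11 libraries, 1 (Abcg2) with the suffix as a covariate and 697-4 given the suffix 2, and 0 by edgeR over the 4 libraries without a title suffix (11 at an unadjusted p below 0.05). It ran from 2 to 17 when 1 library was left out. The lowest was without Sp3-/- 697-2 and the highest, with 4179 of all genes called, without WT 468-4. Calls over all genes moved with it, from 2599 to 4297, 3977, 163, 0 and, without 697-2, 282. There were 17 members and 4031 of all genes called when the first title number was taken as a replicate block. The labels do not say what that number marks, and in that fit 468 holds a single library. Deviations from the group means correlated with a median r of 0.1 (-0.627 to 0.351) over 14 pairs sharing the number. Over 26 pairs not sharing it, the median r was -0.043 (-0.53 to 0.715). The number was not taken as a pairing in the main fit. These correlations cannot exclude one, since few libraries make up each group mean. The 19 partner genes became 8 with the suffix as a covariate (1 with 697-4 given the suffix 2), 0 without suffix-bearing libraries (10 at an unadjusted p below 0.05), and 5 to 29 with 1 library left out. Against Sp3+/- cells, the 18 members became 7 with the suffix as a covariate and 11 to 21 with 1 library left out. Calls over all genes went from 3607 to 763 and to 1490 to 4245 in these fits. With 697-4 given the suffix 2 both counts were 0, with 9 members at an unadjusted p below 0.05. The cause of these moves was not tested, and the reduced fits also held fewer libraries. Other alternatives stayed within 1.5 times each count. Of 449 values for 25 members, 375 kept their side of the threshold and direction, 53 lost a call, 10 gained one and 11 turned. With the suffix as a covariate Abcb1b turned to -0.11, Abcc9 to 0.68, Abce1 to -0.064 and Abcf2 to -0.009, and with 697-4 given the suffix 2 Abcb1b was at -0.125, Abcc9 at 0.85 and Abce1 at -0.105. That coding was chosen after seeing the data. Without suffix-bearing libraries Abcb1b was at -0.13 and Abce1 at -0.11. With 1 library left out, Abcc1 ran from -0.32 to 0.035 and Abcd3 from -0.018 to 0.13. The 11 members not tested against WT had at most 30 reads in a library.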
